A study of Mus musculus with 17 samples.

Results

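The genes described are 10 members of the actin-based contractile apparatus, some typical of smooth muscle and others of skeletal muscle or non-muscle cells. They include the actins Acta1, Acta2 and Actg2, the transgelins Tagln and Tagln2 and the calponins Cnn1 and Cnn2. The others are the myosin regulatory light chain Myl9 and the tropomyosins Tpm1 and Tpm2. These 10 genes were found by symbol, through the GENCODE M21 annotation, among 47729 genes counted in mouse embryonic stem cells, and all were present. The list was chosen with results of the media comparisons already known, and Acta1 was known to be among the genes that differed most between LIM and L2i. The levels and fold changes of these genes between media are therefore a description of what selected them and carry no p-value. The comparison of the cell lines R1 and CGR8 was not used in the choice and is tested.

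Contractile bundles and stress fibres are built from actin filaments that are wrapped by tropomyosin, bound by calponin and transgelin, and pulled by myosin, which works when its regulatory light chain is phosphorylated. Many of the genes are known targets of serum response factor (SRF), which binds a promoter motif called the CArG box together with the coactivators MRTF-A and MRTF-B. The MRTFs are held in the cytoplasm by monomeric actin and enter the nucleus when actin polymerises. In smooth muscle the genes mark the contractile cell, while non-muscle cells also use several of them, above all Tagln2, Cnn2, Tpm1 and Myl9, in stress fibres and the cell cortex.

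Polyadenylated RNA was sequenced from cells grown in serum-free N2B27 medium with the cytokine LIF throughout. LIM contained the MEK inhibitor PD325901 at 0.1 µM and IWP2, an inhibitor of Wnt secretion, at 2 µM, and the LIM cells of the set with both lines had been in it for 4 (R1) and 6 (CGR8) passages after 5 and 5 passages in 2i. LFAI contained FGF2 at 12 ng/ml, human Activin A at 20 ng/ml and IWP2 at 2 µM, with no MEK inhibitor. It was sampled after 35 h, following 9 (R1) and 7 (CGR8) passages in 2i, and after 4 days, following 3 and 9. L2i contained the GSK3 inhibitor CHIR99021 at 3 µM and PD325901 at 0.1 µM, together called 2i, and its cells had been there for 10 and 8 passages. Each of these 4 groups had 1 library of R1 and 1 of CGR8, 8 in all, on plates coated with gelatin and a basement membrane extract. A separate time course of R1 had 9 single libraries. It started from L2i (day 0) and was sampled daily to day 4 after a switch to LIM or to LFAI. Its plates were coated with gelatin and fetal calf serum, and its libraries were sequenced with another chemistry version. All 9 were at passage 32, with 5 passages in 2i for day 0, 4 for days 1 to 3 and 3 for day 4. Passages in 2i differ between the groups compared, and passages, line history and medium cannot be told apart.

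Total gene counts were 15135012 to 22593805 per library in the set with both lines and 12889029 to 13667302 in the time course, and levels are given as CPM, the count of a gene scaled to the library's total gene counts. All 6 pluripotency markers examined were detected in every group of the set with both lines, and their summed level was 2881 to 3544 CPM in LIM, 4203 to 4445 CPM at 35 h of LFAI, 2619 to 2624 CPM after 4 days of LFAI and 4558 to 5477 CPM in L2i. Against L2i, 2 of the 6 were lower in LIM (edgeR, Nanog and Dppa5a, adjusted p = 0.0049 and 0.0085). At 35 h of LFAI 1 was higher and 1 lower, and after 4 days 1 was higher and 4 lower. For scale, calls over the 15525 genes tested ran to 11.3% up and 7.81% down for LIM. They ran to 7.35% up and 7.16% down for LFAI 35 h, and to 21.5% up and 23.3% down for LFAI 4 days. The 4 markers named next were picked by smallest p, which leaves out the 1 that rose. Nanog (log2 fold -4.99 ± 0.35, adjusted p = 2e-05), Zfp42 (-6.09 ± 0.19, adjusted p = 9.5e-07), Sox2 (-1.84 ± 0.15, adjusted p = 3.8e-05) and Dppa5a (-3.62 ± 0.33, adjusted p = 6.4e-05), all genes of the naive or pluripotent state, fell at 4 days, so these markers moved in the same libraries as the contractile genes. Their part in the contractile levels was not tested. The library labelled LFAI day 1 went against its label. Dusp6, a target of the ERK pathway that FGF2 activates, was at 9.22 CPM there, with 77.4 CPM on LFAI day 2 and 9.70 CPM on LIM day 1. Spry4, another such target, was at 2.85 CPM there, with 84.8 CPM on LFAI day 2 and 2.17 CPM on LIM day 1. The SD across genes of its log2 ratio to LIM day 1 was 0.204, against 0.852 to LFAI day 2. It is called the library labelled LFAI day 1 below, and no statement about LFAI rests on it. In bulk RNA, fewer cells that express a gene and less RNA per cell cannot be told apart.

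Because CArG boxes are the shared promoter element described for these genes, the stretches that hold one are shown. RefSeq windows (GRCm38.p6, from 250 bases before to 50 bases after each gene's start) were given for 8 of the 10 genes, and Actg2 and Tagln were without one. An exact box stood in 3 of the 8, those of Acta1, Cnn2 and Myl9, and in 1.63% of all 32851 windows. With 1 mismatch allowed in the inner bases it was in 4 of 8, Acta2 added, and in 9.98% of all windows. The motif reads the same on both strands. A match is a description of these letters and not of binding. Capitals mark the exact or 1-mismatch boxes in the 4 stretches, which are chr8:123894829-123894990 (minus strand) for Acta1, chr19:34255388-34255467 (minus strand) for Acta2, chr10:79988534-79988563 (plus strand) for Cnn2 and chr2:156775293-156775384 (plus strand) for Myl9.
Acta1: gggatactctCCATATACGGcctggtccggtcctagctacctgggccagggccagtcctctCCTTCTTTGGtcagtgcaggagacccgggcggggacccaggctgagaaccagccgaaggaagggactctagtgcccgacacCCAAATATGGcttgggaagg
Acta2: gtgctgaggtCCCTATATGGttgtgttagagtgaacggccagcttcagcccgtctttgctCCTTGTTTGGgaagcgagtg
Cnn2: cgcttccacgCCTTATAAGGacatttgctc
Myl9: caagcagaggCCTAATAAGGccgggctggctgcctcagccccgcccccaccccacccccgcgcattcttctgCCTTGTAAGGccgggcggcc
The exact box of Acta1 is the last in its stretch, 73 to 64 bases before the start, and the other 2 have 1 mismatch. Both boxes of Acta2 have 1 mismatch and begin 84 and 34 bases before the start. Starts here are those of the RefSeq windows. The Acta2 stretch lies inside the longer span that GENCODE M21 gives the gene (chr19:34241090-34255590). The exact box of Cnn2 begins 56 bases before the start and that of Myl9, the first in its stretch, 161 bases before it.

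In the set with both lines, the contractile genes were high in cells kept in LIM and in cells after 4 days of LFAI, and low in L2i and after 35 h of LFAI. Each of the 9 genes that passed the filter on low counts had all 4 LIM and LFAI 4-day libraries above all 4 libraries of L2i and LFAI 35 h. The tenth, Actg2, the actin of enteric smooth muscle, had at most 1 count in any of the 17 libraries and was not tested. Genes were called with edgeR's quasi-likelihood test at an adjusted p under 0.05 over 15525 genes, and what follows counts the calls among the 9 genes beside the share of all genes called. Since the genes were chosen on these contrasts, nothing is read from the counts, and the groups set against L2i share its 2 libraries.

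LIM against L2i had all 9 genes called higher, where 11.3% of all genes were called higher and 7.81% lower. The median log2 fold over the 9 genes was 5.84, beside 0.01 over all genes tested. LFAI at 35 h against L2i had 2 genes called higher, Cnn1 and Tpm2, and none lower, where 7.35% of all genes were called higher and 7.16% lower. The median over the 9 genes was 1.21. With the cell line as a block, Cnn2 was called lower there (log2 fold -0.80) and Tagln2 higher (0.67). LFAI at 4 days against L2i had all 9 called higher, beside 21.5% higher and 23.3% lower among all genes, with a median of 7.07. These medians stay the same when genes with no count in L2i are put at their lower bound.

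LFAI at 4 days against LIM had 5 genes called higher, Tagln, Cnn1, Myl9, Tpm1 and Tpm2, with a median log2 fold over the 9 of 1.28, where 12.3% of all genes were called higher and 17.2% lower. With the line as a block, Acta1 (1.36) and Acta2 (1.41) were called as well. Without R1 of LFAI 4 days 2 were called, and without CGR8 of LIM 3. LFAI at 35 h against LIM had 8 genes called lower, all but Tagln2, where 1.92% of all genes were called higher and 4.46% lower. That count was 4 without either of the LFAI 35 h libraries. LFAI at 4 days against 35 h had 8 genes called higher, again all but Tagln2, where 17.7% were called higher and 19% lower. With the block, Tagln2 was called there too (log2 fold 0.76).

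**Figure D1:**
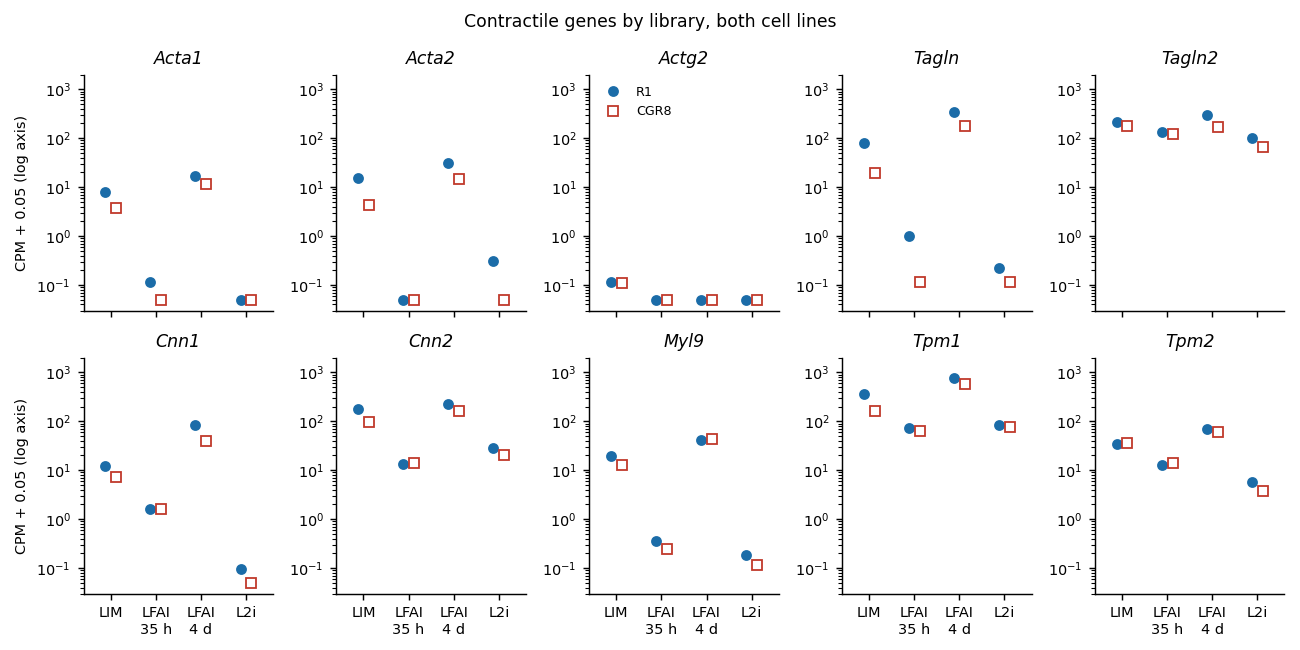
CPM plus 0.05 on a log axis for each of the 10 genes in the 8 two-line libraries, with R1 as filled circles and CGR8 as open squares. LIM and LFAI 4 days stand above LFAI 35 h and L2i in each gene but Actg2, and Tagln2, Cnn2, Tpm1 and Tpm2 have a measurable level in L2i.

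Among the actins, Acta2, the smooth muscle alpha actin (chr19:34241090-34255590, minus strand, GRCm38), was at 15.1 and 4.23 CPM in LIM (R1 and CGR8, in that order here and below). It had no count at 35 h of LFAI, 30.4 and 14.8 CPM at 4 days of LFAI, and 0.266 and 0 CPM in L2i. R1 LIM and CGR8 LFAI 4 days were at nearly the same level, so those groups overlapped, and both were far above L2i, where all 6 counts came from R1. The log2 fold over L2i was 5.84 ± 1.00 (SE) in LIM and 7.07 ± 1.01 after 4 days of LFAI. Against LFAI 35 h, Acta2 was at least 236-fold higher at 4 days, with the floor of 3 counts taken over both 35 h libraries.

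Acta1, the alpha actin of skeletal muscle (chr8:123891769-123894751, minus strand), was at 7.99 and 3.68 CPM in LIM, 0.0631 and 0 CPM at 35 h of LFAI, 16.6 and 11.6 CPM at 4 days of LFAI, and had no count in L2i. Both LFAI 4-day libraries were above both LIM libraries. Set against the floor of 3 counts over the 2 L2i libraries, Acta1 was at least 72.9-fold higher in LIM and at least 177-fold higher after 4 days of LFAI. The 1 count at 35 h of LFAI stood against 186 counts in LIM.

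The actins are close copies of each other. The reference proteins of Acta1 and Acta2 differ at 8 of 377 residues (97.9% identity), and their coding sequences are 85.4% identical, with a longest identical stretch of 29 bases. Acta1 shares a stretch of 77 bases with Actb and Acta2 one of 56 bases with Actg1, the cytoplasmic actins that every cell uses. How shared reads were assigned was not tested. At day 0 of the time course, with Actb at 1563 CPM and Actg1 at 703 CPM, Acta1 had 1 count and Acta2 none. The cardiac actin Actc1 was at 1.02 ± 0.73 CPM in LIM, 3.38 ± 0.40 CPM after 4 days of LFAI and 0.0221 ± 0.0313 CPM in L2i (SD, n = 2), and it was higher in both against L2i (edgeR adjusted p = 0.017 and 0.0012).

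Of the transgelins, Tagln (chr9:45929619-45936058, minus strand), an actin-binding protein also called SM22 alpha and an early marker of smooth muscle, was at 80.4 and 19.8 CPM in LIM and at 0.946 and 0.0650 CPM at 35 h of LFAI. It was at 350 and 176 CPM at 4 days of LFAI, and at 0.177 and 0.0661 CPM in L2i. No LIM library reached the LFAI 4-day level. In every group R1 was above CGR8. The log2 fold over L2i, which held 5 counts, was 8.43 ± 1.09 in LIM and 10.82 ± 1.09 after 4 days of LFAI, and the log2 fold of LFAI 4 days over LIM was 2.39 ± 0.63. That last call was lost with the DESeq2 Wald test (log2 fold 2.40).

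Tagln2 (chr1:172500047-172507380, plus strand), the widely expressed transgelin, varied least. It was at 216 and 177 CPM in LIM, 137 and 124 CPM at 35 h of LFAI, 301 and 170 CPM at 4 days of LFAI, and 103 and 65.2 CPM in L2i. LIM and LFAI 4 days overlapped, and the lowest of the 8 was CGR8 in L2i. The fold over L2i was 2.23 in LIM (log2 1.16 ± 0.29) and 2.69 after 4 days of LFAI (log2 1.43 ± 0.29). The call in LIM was lost without CGR8 of L2i or without R1 of LIM. The protein of Tagln is 67.2% identical to that of Tagln2.

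Calponins bind actin and restrain myosin. Cnn1 (chr9:22099216-22109630, plus strand), the smooth muscle form, was at 12.4 and 7.05 CPM in LIM, 1.58 and 1.56 CPM at 35 h of LFAI, 85.4 and 39.3 CPM at 4 days of LFAI, and 0.0443 and 0 CPM in L2i. Its 4 groups did not overlap, and both 35 h libraries stood above both L2i libraries. Over the single count of L2i the ratio was 365 (95% counting interval 65.0 to 14446) in LIM, 59.2 (10.1 to 2384) at 35 h of LFAI and 2358 (423 to 93189) at 4 days of LFAI. LFAI 4 days was 6.44-fold above LIM (log2 2.69 ± 0.41).

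Cnn2 (chr10:79988584-79996062, plus strand), a calponin of non-muscle cells as well, was at 179 and 95.7 CPM in LIM, 13.2 and 14.2 CPM at 35 h of LFAI, 226 and 164 CPM at 4 days of LFAI, and 28.2 and 20.2 CPM in L2i. Both 35 h libraries lay below both L2i libraries. The fold over L2i was 5.41 in LIM (log2 2.43 ± 0.31), 0.558 at 35 h (log2 -0.84 ± 0.31, not called) and 7.72 at 4 days of LFAI (log2 2.95 ± 0.32). LIM and LFAI 4 days overlapped, and their difference was not called (log2 0.51 ± 0.29).

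Myl9 (chr2:156775420-156781658, plus strand), the regulatory light chain of smooth muscle and non-muscle myosin, was at 19.7 and 12.8 CPM in LIM, 0.315 and 0.195 CPM at 35 h of LFAI, 41.0 and 42.5 CPM at 4 days of LFAI, and 0.133 and 0.0661 CPM in L2i. The LFAI 4-day libraries were close to each other and above both LIM libraries. The log2 fold over L2i, which held 4 counts, was 7.11 ± 0.44 in LIM and 8.48 ± 0.44 after 4 days of LFAI. LFAI 4 days was 2.59-fold above LIM. The Myl9 protein is 94.2% identical to that of Myl12a, whose coding sequence is 85.7% identical.

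The tropomyosins run along the actin filament and set which myosins and binding proteins reach it. Tpm1 (chr9:67022590-67049406, minus strand) was at 353 and 162 CPM in LIM, 74.2 and 63.0 CPM at 35 h of LFAI, 758 and 582 CPM at 4 days of LFAI, and 85.2 and 77.4 CPM in L2i. The 35 h libraries lay just below those of L2i (log2 fold -0.25 ± 0.32, not called), and LIM held the widest spread between lines. The fold over L2i was 3.04 in LIM (log2 1.61 ± 0.32) and 7.95 after 4 days of LFAI (log2 2.99 ± 0.34). The call in LIM was lost without either of the L2i libraries. Counts are per gene, so muscle and non-muscle isoforms of Tpm1 are summed.

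Tpm2 (chr4:43514711-43523765, minus strand) was at 33.8 and 36.1 CPM in LIM, 12.9 and 14.0 CPM at 35 h of LFAI, 68.3 and 59.9 CPM at 4 days of LFAI, and 5.62 and 3.77 CPM in L2i. Its 4 groups did not overlap. The fold over L2i was 7.02 in LIM (log2 2.81 ± 0.22), 2.80 at 35 h (log2 1.49 ± 0.22) and 13.0 after 4 days of LFAI (log2 3.70 ± 0.23).

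Levels between genes were compared per exon length, as RPKM, the CPM per kilobase of exon (mean ± SD, n = 2). After 4 days of LFAI, Tagln was highest at 132 ± 61.6 RPKM, followed by Tagln2 at 113 ± 44.7 RPKM, Tpm1 at 103 ± 19.2 RPKM and Cnn2 at 79.3 ± 17.9 RPKM. These 4 do not differ from their neighbours beyond the spread between lines. Below them came Myl9 (35.9 ± 0.911 RPKM), Cnn1 (22.8 ± 11.9 RPKM), Tpm2 (22.0 ± 2.02 RPKM), Acta2 (10.3 ± 5.04 RPKM) and Acta1 (9.16 ± 2.30 RPKM), of which Cnn1 with Tpm2 and Acta2 with Acta1 overlap. In LIM the order began with Tagln2 (94.2 ± 13.2 RPKM) and Cnn2 (55.8 ± 23.9 RPKM), and Cnn1 (3.55 ± 1.37 RPKM), Acta1 (3.80 ± 1.98 RPKM) and Acta2 (4.40 ± 3.50 RPKM) were lowest among the 9 and overlapped. Per coding length the order changed. Tpm1 was then first after 4 days of LFAI, at 470 RPKM with Tagln at 436 RPKM, and second in LIM, at 181 RPKM with Cnn2 at 150.0 RPKM, and the lowest of the 9 in LIM was Acta1 at 5.16 RPKM, with Cnn1 at 10.1 RPKM. Actb, for scale and per exon length, was at 865 ± 51.8 RPKM in LIM and 647 ± 14.7 RPKM after 4 days of LFAI.

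The lines were compared over all 4 media, with medium as a term in the fit, so n = 4 libraries per line, 1 per medium. Tagln was 2.93-fold higher in R1 than in CGR8 (log2 1.55 ± 0.25, edgeR adjusted p = 0.032), and 0.251% of all genes were called higher in R1 and 0.29% lower. R1 was higher in 4 of 4 media, by log2 ratios of 2.02 in LIM, 3.87 at 35 h of LFAI, 0.99 at 4 days of LFAI and 1.42 in L2i. The 35 h and L2i ratios rest on 1 count in CGR8. The adjusted p was 0.074 to 0.23 without either L2i library or either LIM library, so the call rests on those 4. None of the other 8 genes was called, with adjusted p of 0.13 to 0.84.

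Acta2, the next in size, was higher in R1 by a log2 fold of 1.50 ± 0.36 (adjusted p = 0.16), in 3 of the 4 media, with no count in either line at 35 h of LFAI. Fitted folds of Acta1 (0.83 ± 0.37), Cnn1 (0.80 ± 0.22), Tagln2 (0.50 ± 0.12), Tpm1 (0.49 ± 0.15) and Cnn2 (0.48 ± 0.14) also had R1 above CGR8, and those of Myl9 (0.32 ± 0.23) and Tpm2 (0.13 ± 0.15) were nearest to 0. The median over the 9 genes was 0.50, beside -0.00 over all genes. The DESeq2 Wald test, an alternative, also called Acta2 (log2 fold 1.53, adjusted p = 0.019) and Tagln2 (0.50, adjusted p = 0.020). Actb (0.12 ± 0.09), Actg1 (0.17 ± 0.14) and Srf (0.05 ± 0.11) were not called (adjusted p = 0.74, 0.75 and 0.92). Passage numbers and passages in 2i differ between the lines. The 2 lines serve as the study's biological replicates, and p-values measure the spread between these libraries.

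**Figure D2:**
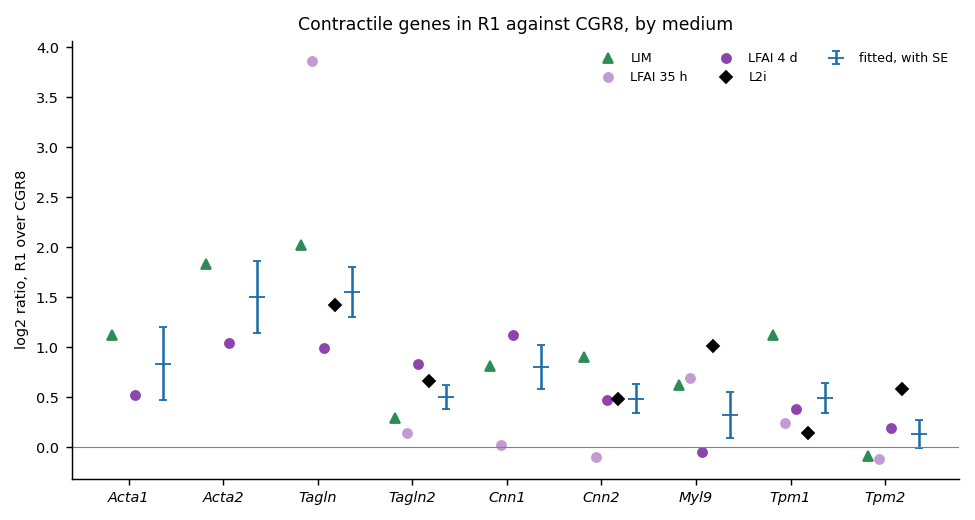
Log2 ratio of CPM in R1 over CGR8 for the 9 tested genes, with 1 point per medium where both lines had counts and the fitted fold with its SE beside them. Tagln is above 0 in all 4 media and Tpm2 in 2 of 4.

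In the R1 time courses, with 1 library per point and no test, the actins stayed near the detection limit. Acta1 had 0 to 3 counts and Acta2 0 to 2 counts in all 9 libraries, where the floor of 3 counts lies at 0.220 to 0.233 CPM. No day in either medium stood apart. Of the 10 genes, 7 reached 1 CPM in some library of the time course, Tagln and Cnn1 through LFAI alone. In LFAI, Tagln, Cnn1, Cnn2, Myl9 and Tpm2 were above a log2 fold of 1 over day 0 on day 4, where 16.3% of all genes were above that fold and 13.4% below its negative. In LIM, where the shares were 8.17% and 7.22%, Cnn2, Myl9 (3.55) and Tpm2 (1.93) were above it on day 4. Tagln and Cnn1 in LIM rest on 9 counts against 3 and 7 counts against 1, ratios of 3.01 (0.752 to 17.3) and 7.03 (0.904 to 317) whose counting intervals include no change.

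Cnn1, Tpm2 and Tagln were higher in LFAI than in LIM on days 2 to 4. Cnn1 was at 0.0738 CPM (1 count) on day 0, then at 1.60, 4.20 and 6.74 CPM on LFAI days 2 to 4, while LIM days 1 to 4 had 0.621, 0.294, 0.370 and 0.519 CPM. Tpm2 was at 2.51 CPM on day 0, at 16.6, 28.7 and 47.8 CPM on LFAI days 2 to 4, and at 4.97, 6.70, 8.00 and 9.72 CPM on LIM days 1 to 4. Tagln was at 0.221 CPM on day 0, at 0.840, 1.12 and 4.42 CPM on LFAI days 2 to 4, and at 0.233, 0.368, 0.370 and 0.668 CPM on LIM days 1 to 4. On day 4 the log2 difference of LFAI over LIM was 3.28 for Cnn1, 2.19 for Tpm2 and 2.40 for Tagln.

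Cnn2, Myl9 and Tpm1 were lower in LFAI than in LIM on the same days, though on day 4 of LFAI Cnn2 and Myl9 were above day 0. The ratio of Tpm1 on day 4 of LFAI over day 0 was 1.09 (0.998 to 1.18), whose counting interval includes no change. Cnn2 was at 10.3 CPM on day 0, at 7.48, 8.77 and 25.9 CPM on LFAI days 2 to 4, and at 30.3, 33.5, 50.2 and 57.0 CPM on LIM days 1 to 4. Myl9 was at 0.221 CPM on day 0, at 0.153, 0.524 and 2.92 CPM on LFAI days 2 to 4, and at 1.94, 1.91, 1.93 and 4.08 CPM on LIM days 1 to 4. Tpm1 was at 75.8 CPM on day 0, at 62.1, 58.4 and 82.4 CPM on LFAI days 2 to 4, and at 94.1, 94.5, 101 and 111 CPM on LIM days 1 to 4. The log2 differences of LFAI over LIM on days 2, 3 and 4 were -2.15, -2.60 and -1.23 for Cnn2. They also had their lowest LFAI level on day 2 or 3.

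Tagln2 went from 153 CPM on day 0 through 175, 89.8 and 100 CPM on LFAI days 2 to 4. It was at 152, 138, 112 and 117 CPM on LIM days 1 to 4. Its ratio over day 0 on day 4 was 0.658 (0.614 to 0.706) in LFAI and 0.767 (0.718 to 0.820) in LIM. The library labelled LFAI day 1 was near LIM day 1 in each gene, with 30.3 CPM for Cnn2, 1.39 CPM for Myl9, 4.98 CPM for Tpm2 and 0.366 CPM for Cnn1. In the set with both lines, R1 at 35 h of LFAI was at 1.58 CPM for Cnn1, 12.9 CPM for Tpm2, 13.2 CPM for Cnn2 and 0.315 CPM for Myl9. Those values lie beside 1.60, 16.6, 7.48 and 0.153 CPM on LFAI day 2, with other coating, passages and chemistry.

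**Figure D3:**
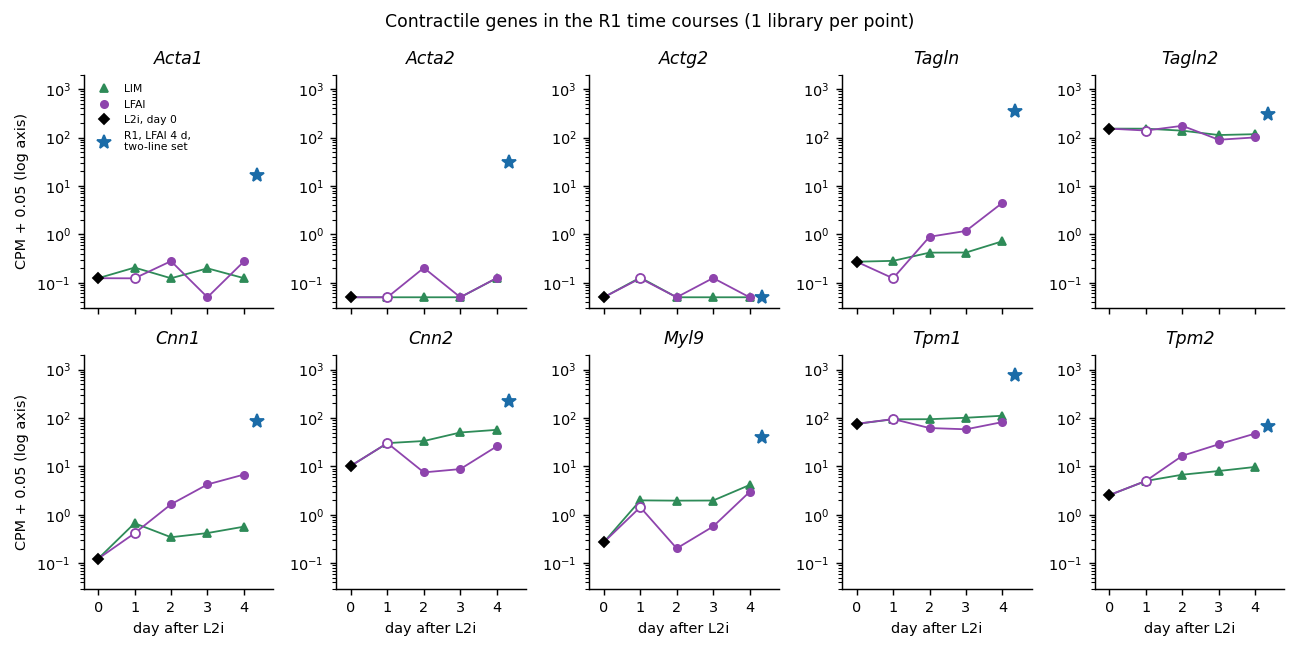
CPM plus 0.05 on a log axis by day for the 10 genes in the R1 time courses, with the day 0 library as a diamond, LIM as triangles, LFAI as circles and the library labelled LFAI day 1 as an open circle. A star marks R1 after 4 days of LFAI in the set with both lines, which is well above LFAI day 4 for Acta1, Acta2, Tagln, Cnn1, Cnn2, Myl9 and Tpm1.

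R1 cells after 4 days of LFAI were sequenced in both experiments, and most contractile genes were far higher in the set with both lines than in the time course. Acta2 had 472 counts against 1, and Acta1 257 counts against 3, a ratio of levels of 73.7 (95% counting interval 24.9 to 360). Tagln was at 350 CPM against 4.42 CPM, a ratio of 79.1 (61.2 to 104). The ratio was 14.0 for Myl9 (10.1 to 19.9), 12.7 for Cnn1 (10.2 to 15.9), 9.20 for Tpm1 (8.65 to 9.80), 8.73 for Cnn2 (7.81 to 9.77) and 3.00 for Tagln2 (2.82 to 3.19). Tpm2 was nearest, at 68.3 CPM against 47.8 CPM, a ratio of 1.43 (1.29 to 1.58). Intervals cover counting error alone.

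The starting level in L2i was closer for each of these genes but Tpm2. R1 in L2i of the set with both lines had 4 counts of Tagln, 3 of Myl9 and 1 of Cnn1, against 3, 3 and 1 on day 0 of the time course. Tpm1 was at 85.2 CPM against 75.8 CPM, Tagln2 at 103 CPM against 153 CPM, Cnn2 at 28.2 CPM against 10.3 CPM and Tpm2 at 5.62 CPM against 2.51 CPM. The log2 fold over L2i was thus larger in the set with both lines for 6 of the 7 genes with a level in both sets. It was 10.13 against 3.57 for Tagln, 8.96 against 4.89 for Cnn1, 7.27 against 2.99 for Myl9 and 3.06 against 0.07 for Tpm1. For Cnn2 it was 2.91 against 1.27, for Tagln2 1.46 against -0.65, and for Tpm2 3.49 against 4.12.

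Among all 14905 genes with a level in both, the difference of these folds was above 1 in 9.86%, its median was -0.02, and 95% of genes lay between -2.92 and 2.14. The difference was 6.56 for Tagln, 4.28 for Myl9, 4.07 for Cnn1, 3.00 for Tpm1, 2.12 for Tagln2 and 1.64 for Cnn2. The genes were chosen with the media contrasts of the set with both lines known, which favours larger folds on that side. Nothing is therefore read from their place among all genes. The coating, the sequencing chemistry, the passage number (26 against 32) and the experiment itself differ between the sets and cannot be told apart. The passage numbers given are those of the R1 LFAI 4-day libraries, and both R1 L2i libraries were at passage 32. Passages in 2i were 3 in both R1 LFAI 4-day libraries. In the R1 L2i libraries they were 10 in the set with both lines and 5 in the time course. The difference has 1 library on each side and was not tested.

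**Figure D4:**
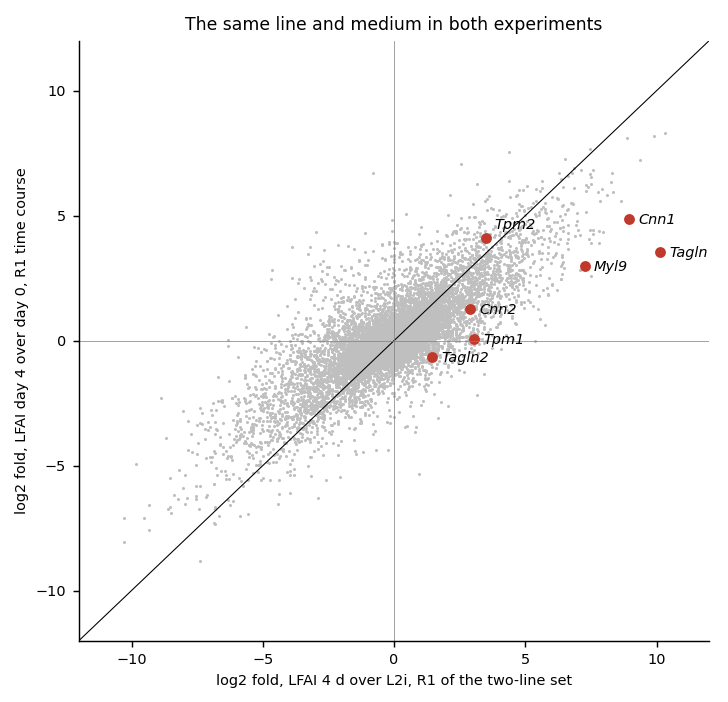
Log2 fold of LFAI 4 days over L2i in R1, with the set that has both lines on the x axis, the time course on the y axis, all 14905 genes as grey points and contractile genes in red. Tagln, Cnn1, Myl9, Tpm1, Cnn2 and Tagln2 are to the right of the diagonal of equal folds, and Tpm2 is slightly to its left.

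Over the 8 two-line libraries the genes varied together. Pearson's r of log2 CPM between pairs of the 9 genes was 0.77 to 1.00, lowest between Tagln2 and Cnn2, as a description over libraries that share medium and line. The genes were chosen with the media contrasts of these libraries known, which favours a high r, so nothing is read from these values. It was 0.996 between Acta1 and Myl9, 0.995 between Acta2 and Cnn2, 0.991 between Acta1 and Tagln, and 0.990 between Cnn1 and Tpm2. The 5 genes most like Acta2 by r, among 10315 genes at 5 CPM or more, were Greb1, Cnn2, Dpysl2, Myl6 and Cfl1 (0.983 to 0.996), and those most like Tagln were Fzd2, Cacna2d1, Zyx, Selenon and Klf7 (0.989 to 0.995). Those most like Acta1 were Myl9, Grik5, Selenon, Tagln and Vav2 (0.989 to 0.996). By Spearman's rank correlation over the same 8 libraries, 1, 1 and 0 of these 5 remained for Acta2, Tagln and Acta1.

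These like genes differed in how they stood in R1 after 4 days of LFAI in the 2 experiments. Greb1 was at 20.4 CPM in R1 after 4 days of LFAI in the set with both lines and at 18.5 CPM in the time course. Grik5 was at 40.7 CPM against 40.3 CPM, Vav2 at 66.0 CPM against 64.5 CPM, Dpysl2 at 28.6 CPM against 33.7 CPM, Klf7 at 48.1 CPM against 48.2 CPM, and Cacna2d1 at 13.7 CPM against 15.7 CPM. Zyx, which encodes the focal adhesion protein zyxin, was at 89.9 CPM against 48.8 CPM, Selenon at 36.8 CPM against 18.5 CPM, and Fzd2, a Wnt receptor, at 88.6 CPM against 41.7 CPM. Myl6, a myosin essential light chain, was at 258 CPM against 71.6 CPM, and Cfl1, which encodes the actin-severing cofilin, at 1121 CPM against 781 CPM. No test was made of these differences.

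Srf and Mrtfa, regulators of many contractile genes, were called higher in both LIM and LFAI 4 days, by smaller folds than any of the 9 contractile genes. Srf was at 84.6 ± 12.3 CPM in LIM, 142 ± 10.9 CPM after 4 days of LFAI and 57.5 CPM in L2i, a log2 fold over L2i of 0.50 ± 0.15 in LIM (edgeR adjusted p = 0.048) and 1.26 ± 0.15 after 4 days of LFAI (adjusted p = 0.00024). Mrtfa, which encodes MRTF-A, was higher by 0.75 ± 0.19 in LIM (adjusted p = 0.025) and by 0.72 ± 0.19 after 4 days of LFAI (adjusted p = 0.014). Mrtfb was called in neither (adjusted p = 0.29 and 0.81). Myocd, which encodes myocardin, the coactivator of cardiac and smooth muscle, was at 0.186 ± 0.0838 CPM in LIM, 0.911 ± 0.376 CPM after 4 days of LFAI and 0.0991 ± 0.140 CPM in L2i, and was called in neither (adjusted p = 0.65 and 0.054).

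Of 12 tested genes in the list of SRF and MRTF regulators, 3 were called higher and none lower in LIM against L2i, none and 1 at 35 h of LFAI, and 3 and 2 after 4 days of LFAI. Median log2 folds were 0.39, -0.06 and -0.00, beside 0.01, -0.00 and -0.00 over all genes. Beside the counts of this list and those that follow, 11.3% of all genes were called higher and 7.81% lower in LIM, 7.35% and 7.16% at 35 h, and 21.5% and 23.3% after 4 days. The 3 higher and 2 lower of 12 after 4 days are near those shares. Mef2d, a muscle transcription factor, was higher in LIM (log2 0.77 ± 0.18, adjusted p = 0.018). The repressor Elk3 (-2.10 ± 0.43, adjusted p = 0.0043) and Klf4 (-6.88 ± 0.56, adjusted p = 3.8e-05), which is also a factor of the naive state, were lower after 4 days of LFAI.

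A list of 28 other contractile and actin-binding genes had 9 higher and 3 lower in LIM, 2 and 5 at 35 h of LFAI, and 12 and 2 after 4 days of LFAI, all against L2i, with median log2 folds of 0.47, -0.12 and 0.68. Among all genes 21.5% were called higher after 4 days. Zyx was higher in LIM (log2 3.32 ± 0.45, adjusted p = 0.0019) and after 4 days of LFAI (4.74 ± 0.47, adjusted p = 0.0001). So were Pdlim7, an actin-associated adaptor (2.34 ± 0.36, adjusted p = 0.0032, and 3.92 ± 0.38, adjusted p = 8.6e-05), and Myh10, the heavy chain of non-muscle myosin IIB (0.96 ± 0.14, adjusted p = 0.0023, and 1.49 ± 0.14, adjusted p = 6.9e-05). Tpm4 was higher by 0.68 ± 0.19 in LIM (adjusted p = 0.036) and by 1.34 ± 0.19 after 4 days of LFAI (adjusted p = 0.00065). Actb was not called in LIM (0.39 ± 0.13, adjusted p = 0.068) or after 4 days (-0.01 ± 0.13, adjusted p = 0.94), and Actg1 was higher after 4 days (0.99 ± 0.21, adjusted p = 0.0048).

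YAP and TEAD form another pathway that reads tension in the actin cytoskeleton. Of its 12 tested genes, 3 were called higher and 1 lower in LIM, none and 1 at 35 h of LFAI, and 6 and 3 after 4 days, with median log2 folds of 0.41, 0.01 and 0.80. The 3 lower of 12 after 4 days are near the 23.3% of all genes. The target Thbs1, which encodes thrombospondin, was higher in LIM (log2 4.70 ± 0.67, adjusted p = 0.0023) and after 4 days of LFAI (7.63 ± 0.69, adjusted p = 6.4e-05). The target Ccn1 was higher after 4 days (2.92 ± 0.48, adjusted p = 0.0013), as was the factor Tead3 (3.08 ± 0.33, adjusted p = 0.00016), while Tead4 was lower (-2.92 ± 0.56, adjusted p = 0.0032). In R1 after 4 days of LFAI, Thbs1 was at 175 CPM in the set with both lines against 7.87 CPM in the time course, and Ccn1 at 119 CPM against 3.90 CPM. Ccn2, another target, chosen after its values were seen, was at 85.4 ± 24.3 CPM after 4 days of LFAI (SD, n = 2 lines) and at 103 CPM on LFAI day 4 of the time course. Srf in R1 after 4 days of LFAI was at 135 CPM against 77.6 CPM in the time course. In L2i it was at 58.1 CPM in R1 of the set with both lines and at 42.1 CPM on day 0. The log2 fold over L2i in R1 was larger in the set with both lines by 0.29 for Srf, 3.42 for Thbs1 and 5.32 for Ccn1.

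In the list of TGF-beta ligands, receptors and targets (15 tested), 2 were higher and 1 lower in LIM, 2 and 2 at 35 h, and 1 and 3 after 4 days, with medians of 0.13, -0.08 and 0.04. The transducer Smad3 was lower after 4 days of LFAI (-1.55 ± 0.21, adjusted p = 0.00055), and the inhibitor Smad7 was lower in LIM (-1.99 ± 0.29, adjusted p = 0.0025). The repressor Skil was higher in LIM (1.85 ± 0.32, adjusted p = 0.0056) and after 4 days (2.29 ± 0.33, adjusted p = 0.00066).

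Some markers of differentiated cells were higher in LIM and after 4 days of LFAI as well, in the set with both lines. For 7 further smooth muscle markers the summed level was 76.2 to 83.0 CPM in LIM, 65.2 to 68.6 CPM at 35 h of LFAI, 73.0 to 112 CPM after 4 days and 35.4 to 44.4 CPM in L2i, with 50.7 to 99.8 CPM in the time course. Of these 7, 3 were called higher in LIM, 2 at 35 h and 4 after 4 days, and none lower. Myh11, Smtn, Lmod1 and Synpo2 are also in the list of 28 and Myocd in that of SRF regulators, so the lists are not separate counts. Myh11, the smooth muscle myosin heavy chain, was at 0.927 ± 0.684 CPM in LIM, 0.0640 CPM at 35 h, 0.615 ± 0.223 CPM after 4 days and 0.530 CPM in L2i, and was not called (adjusted p = 0.52, 0.083 and 0.88). It is given as a defining marker and was chosen after its values were seen. Des, which encodes desmin, was higher in LIM (2.33 ± 0.36, adjusted p = 0.0032) and after 4 days (1.43 ± 0.36, adjusted p = 0.011), as was Synpo2 (2.37 ± 0.48, adjusted p = 0.011, and 3.10 ± 0.49, adjusted p = 0.0011). Lmod1 was also higher, at 1.87 and 1.33 CPM with no count in L2i of the set with both lines (adjusted p = 0.0025 and 0.0011). In the time course, Lmod1 was at 1.03 CPM in L2i on day 0, 1.11 CPM on LIM day 4 and 1.27 CPM on LFAI day 4. Synpo2 was at 0.664, 2.74 and 13.8 CPM in those libraries.

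Fibroblast or feeder markers (8 genes) summed to 13.1 to 29.1 CPM in LIM, 8.58 to 9.02 CPM at 35 h, 16.1 to 20.1 CPM after 4 days and 7.83 to 8.85 CPM in L2i, with Dcn and Lum at 0 in L2i and Lum and Postn at 0 after 4 days. Of 5 tested, 2 were higher and none lower in LIM, none and 1 at 35 h, and 3 and 1 after 4 days. The genes named next were picked by smallest p, and those given for 4 days leave out the 1 called lower. Thy1 was higher in LIM (2.89 ± 0.61, adjusted p = 0.013) and after 4 days, at 9.65 CPM against 1.61 CPM in L2i (adjusted p = 0.0099), Col1a1 in LIM (2.82 ± 0.77, adjusted p = 0.035) and Col1a2 after 4 days (2.76 ± 0.60, adjusted p = 0.0061), while Dcn was at 2.60 CPM after 4 days with no count in L2i (adjusted p = 0.0080). Skeletal or cardiac muscle markers (11 genes) summed to 14.0 to 26.7 CPM in LIM, 7.28 to 9.72 CPM at 35 h, 14.7 to 17.5 CPM after 4 days and 5.15 to 5.62 CPM in L2i. Of 7 tested, 4 were higher and none lower in LIM, none either way at 35 h, and 2 higher and 1 lower after 4 days. After 4 days of LFAI against LIM none was higher and 3 were lower, where 12.3% of all genes were called higher and 17.2% lower. Actc1 is counted in both this list and that of 28. Here too the genes named were picked by smallest p, and those given for 4 days leave out the 1 called lower. Myh6, a cardiac myosin, was higher in LIM (2.56 ± 0.50, adjusted p = 0.0092) and after 4 days (3.23 ± 0.51, adjusted p = 0.0011), and Myh3, an embryonic myosin, in LIM (2.05 ± 0.50, adjusted p = 0.022). Primitive endoderm markers (7 genes) summed to 14.1 to 18.3 CPM in LIM, 2.84 to 4.22 CPM at 35 h, 4.84 to 8.19 CPM after 4 days and 4.03 to 4.43 CPM in L2i. Of 5 tested, 1 was higher in LIM, none at 35 h, and 1 was higher and 1 lower after 4 days. After 4 days, the counts of this list and of the muscle list are near the 21.5% higher and 23.3% lower among all genes. Dab2 was higher in LIM (2.41 ± 0.57, adjusted p = 0.020) and after 4 days (2.18 ± 0.57, adjusted p = 0.013), and Pdgfra was lower after 4 days (-4.13 ± 0.79, adjusted p = 0.0031). From L2i on day 0 to LIM day 4 of the time course, fibroblast or feeder markers went from 14.8 to 5.79 CPM. Skeletal or cardiac muscle markers went from 12.9 to 11.6 CPM and primitive endoderm markers from 11.3 to 8.16 CPM. On LFAI day 4 these lists were at 17.9, 18.0 and 16.3 CPM, in that order. The part of such cells in the levels of the contractile genes was not tested.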

How the data were processed

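The deposited values are raw counts of reads per gene that the authors made from mouse polyadenylated RNA, 17 libraries in all. Per the labels' protocols, libraries were stranded mRNA libraries run on a HiSeq2500; per the submitters' processing notes, HISAT2 2.0.4, HTSeq 0.6.1 and DESeq2 1.10.1 were used with GRCm38/mm10. The annotation release and strand setting are not given in the sources used here. Summary rows, holding 47.7% to 51.9% of records (36.2% to 45.2% not unique), were left out. GENCODE M21 matched 47310 (99.1%) of the gene IDs.

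The 8 two-line libraries were fitted with edgeR 4.0.16 (R 4.3.3), by the quasi-likelihood test after filterByExpr and TMM scaling (factors 0.964 to 1.03), with Benjamini-Hochberg adjustment over 15525 genes. The script was tested on simulated data. SE is the fitted log2 fold divided by the square root of its F. CPM are counts scaled to the total gene counts of the library. Same-numbered libraries are the same cell line, so the lines pair the samples; deviations from group means correlated at 0.04 to 0.40 between media. The line as a block, DESeq2 1.42.0, no filter, other size factors and leaving out each library were alternatives. The time course has 1 library per point and no test, with log2 folds on CPM with a prior count of 2. Intervals (95%, exact) and the floor of 3 counts cover counting error only.

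The genes and lists were chosen with earlier results of these data known. Beside the members, genes were named from the 4 per list with the smallest p in LIM or LFAI 4 days against L2i, and 5 genes each by Pearson's r to Acta2, Tagln and Acta1. Actb, Actg1, Srf, Mrtfa, Mrtfb and Myocd were named whatever their values. Results of 1 further gene list and of 1 gene are not reported here.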

Additional observations from a re-analysis of the deposited data

Results flagged for a closer look

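Tagln2 moved in opposite directions over L2i after 4 days of LFAI in the 2 experiments. The ratio of levels was 2.93 (95% counting interval 2.79 to 3.08) in R1 and 2.60 (2.42 to 2.80) in CGR8 of the set with both lines, and 0.658 (0.614 to 0.706) in the R1 time course, a gap of 2.16 on the log2 scale between R1 of the 2 experiments. It was noted because both lines of one set moved one way and the single library of the other set the opposite way. The difference was not tested, and coating, sequencing chemistry, passages and experiment cannot be told apart.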

How the results depend on the processing

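The counts of contractile genes called higher over L2i were 9 after 4 days of LFAI without any one library, 7 to 9 in LIM and 2 at 35 h, and the number of genes above a log2 fold of 1 on day 4 of each time course stayed 5 under every alternative tried (in LIM with Tagln and Cnn1, at 9 and 7 counts), one of which, leaving out the library labelled LFAI day 1, was chosen after seeing the data. With the time course libraries added, Tagln2 was no longer called after 4 days of LFAI against L2i (log2 fold 0.77). At 35 h against L2i no gene was called lower, but 1 (Cnn2) was with no filter, with DESeq2 and with the replicate block, and 0 to 1 without single libraries. For LFAI 4 days against LIM the count was 2 to 5 without single libraries, and for LFAI 35 h against LIM 4 to 8 lower. For R1 against CGR8 it was 6 with no filter, 3 with DESeq2, 0 with no replicate block and 0 to 1 without single libraries. Apart from the changes given here and beside the results, the block changed no call of a contractile gene.

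Over all genes, LFAI 35 h against LIM gave 990 calls, against 2205 with no filter, 1702 with DESeq2 and 1489 with the replicate block. R1 against CGR8 gave 84, against 678, 285 and, with no replicate block, 9. Without single libraries the calls were 1487 to 2821 for LIM against L2i, 876 to 2152 for LFAI 35 h against L2i, 2093 to 4448 for LFAI 4 days against LIM, 215 to 1012 for LFAI 35 h against LIM, 3344 to 5676 for LFAI 4 days against 35 h and 28 to 140 for R1 against CGR8. The share of promoter windows with a CArG box was 9.98% with 1 mismatch. Single log2 folds that turned sign, none of them called, were Tagln at 35 h against L2i (-0.972 without R1 of 35 h, up to 2.84 without R1 of L2i), Tagln2 at 4 days of LFAI against LIM (-0.172 without R1 of 4 days, up to 0.607 without CGR8) and Tpm2 in R1 against CGR8 (-0.004 without CGR8 of L2i, up to 0.209 without R1 of LIM). The cause was not tested. Depth limits the L2i, 35 h and time course values of Acta1, Acta2, Tagln, Cnn1 and Myl9, many of which rest on 0 to 6 counts.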
